A study of Mus musculus with 18 samples.

Results

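The genes of oligodendrocytes and of the myelin they make were followed through 3 brain tissues of mice ranked as high or low performers in a study of short-term memory. The set held 32 of the 48440 genes in the table, found by matching a fixed list of symbols to the gene names. The rule itself holds no expression value. By role they were 13 genes of myelin proteins and other proteins of the mature cell, 6 of enzymes that make or break down myelin lipids and related molecules, 5 of transcription factors, 3 of progenitors or early cells, and 5 of other proteins found in the lineage. All 32 symbols were found, and all 32 passed the filter on low values (a mean of at least 10 normalized counts) in each comparison.

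Oligodendrocytes wrap axons of the central nervous system in myelin, a compacted membrane rich in cholesterol and galactolipids that speeds conduction and helps to feed the axon. They arise from progenitors that carry the growth factor receptor PDGFRA and the proteoglycan NG2, encoded by Cspg4. OLIG1, OLIG2 and SOX10 act from the progenitor on, whereas MYRF switches on the myelin genes as the cell matures. White matter tracts and heavily myelinated nuclei hold many mature cells, and progenitors are spread more evenly through grey and white matter.

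RNA was sequenced from mice of the Diversity Outbred stock, whose animals each inherit a different mosaic of the founder strains' genomes, after a stranded TruSeq mRNA library preparation. The 6 groups were high and low performers, with 3 libraries each, from the prefrontal cortex (PFC) and from the tissues that the labels name MDTH and HPF. The sources used here do not give the age or sex of the mice, the memory test behind the ranking, or a genotype or drug that the groups share or differ in. The labels do not say that the 3 libraries of a group came from separate animals, so the p-values measure the spread between libraries, part of which may be technical.

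Estimated depth ran from 41156227 to 48838302 reads in PFC, from 42941006 to 47535113 in MDTH and from 76705451 to 88633852 in HPF. The summed level of 6 thalamic marker genes was 90431 to 185530 normalized counts in MDTH against 1924 to 12172 elsewhere, and that of 6 hippocampal marker genes was 52605 to 74064 in HPF against 11555 to 19533 elsewhere. All HPF libraries were run in other lanes than the PFC and MDTH libraries, so a difference of HPF from either tissue cannot be told apart from a lane difference. In PFC and MDTH the library names of high and low performers also follow different styles. In HPF the letters after the number in the name are FF or EF in high and BA or BD in low performers. The labels do not say what the style or the letters mark, and a difference between the groups cannot be told apart from them. Ttr, a choroid plexus gene, exceeded 50000 normalized counts in 4 libraries, namely PFC high 1, PFC low 2, PFC low 3 and HPF high 2. Results over the 32 genes are given with and without them.

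Promoters are shown for 6 genes that mark the ends of the tissue results below: Mag, Gal3st1, Tspan2 and Nkx6-2, with some of the widest differences between MDTH and HPF, and Galc and Pdgfra, which passed in no comparison between tissues. Each is the 250 bases before a RefSeq start on build GRCm38.p6, written 5′ to 3′ on the gene's strand. Capitals mark matches, on either strand, to a SOX motif (ACAAAG), an OLIG-type E-box (CATCTG) or a MYRF motif (CTGGNAC). The windows are chr7:30914864-30915113 on the minus strand for Mag, the myelin-associated glycoprotein, and chr3:102734520-102734769 on the plus strand for Tspan2, a tetraspanin of the oligodendrocyte membrane. Those of Gal3st1, a sulfatide-making enzyme gene, and of Nkx6-2, a homeodomain factor gene, are chr11:3983386-3983635 on the plus strand and chr7:139582798-139583047 on the minus strand. Those of Galc, the lysosomal galactosylceramidase, and of Pdgfra are chr12:98259460-98259709 on the minus strand and chr5:75152001-75152250 on the plus strand.
Mag: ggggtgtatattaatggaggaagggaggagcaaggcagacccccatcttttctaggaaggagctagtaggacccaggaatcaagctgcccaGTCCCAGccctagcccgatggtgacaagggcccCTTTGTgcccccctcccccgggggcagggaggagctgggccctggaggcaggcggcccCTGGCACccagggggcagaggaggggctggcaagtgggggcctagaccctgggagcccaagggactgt
Gal3st1: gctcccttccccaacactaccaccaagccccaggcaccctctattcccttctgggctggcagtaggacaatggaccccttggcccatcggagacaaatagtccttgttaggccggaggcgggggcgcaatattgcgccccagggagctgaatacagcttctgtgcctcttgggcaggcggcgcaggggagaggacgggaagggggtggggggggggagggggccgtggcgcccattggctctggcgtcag
Tspan2: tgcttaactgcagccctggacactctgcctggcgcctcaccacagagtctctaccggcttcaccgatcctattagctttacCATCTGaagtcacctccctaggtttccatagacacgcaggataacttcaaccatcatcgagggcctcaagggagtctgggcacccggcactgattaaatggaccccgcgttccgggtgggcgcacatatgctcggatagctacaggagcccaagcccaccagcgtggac
Nkx6-2: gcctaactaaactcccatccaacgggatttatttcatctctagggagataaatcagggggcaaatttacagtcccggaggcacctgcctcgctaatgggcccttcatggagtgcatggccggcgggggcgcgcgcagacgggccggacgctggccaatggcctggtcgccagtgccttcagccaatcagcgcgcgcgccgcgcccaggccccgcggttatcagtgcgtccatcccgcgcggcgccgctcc
Galc: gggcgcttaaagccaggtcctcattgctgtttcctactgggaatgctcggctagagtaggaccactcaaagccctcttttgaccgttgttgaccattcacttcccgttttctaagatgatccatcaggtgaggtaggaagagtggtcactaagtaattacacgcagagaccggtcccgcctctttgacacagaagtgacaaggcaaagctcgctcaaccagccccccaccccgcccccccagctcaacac
Pdgfra: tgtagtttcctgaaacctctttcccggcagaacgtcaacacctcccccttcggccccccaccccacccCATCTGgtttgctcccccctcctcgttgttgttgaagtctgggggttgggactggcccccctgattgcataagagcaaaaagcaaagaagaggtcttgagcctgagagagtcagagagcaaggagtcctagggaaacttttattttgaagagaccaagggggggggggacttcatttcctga

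The Mag window held 3 matches, 2 to the MYRF motif and 1 to the SOX motif. The Tspan2 and Pdgfra windows held 1 E-box each, and the Gal3st1, Nkx6-2 and Galc windows held 0 matches to these letters. The RefSeq start of the Tspan2 window lay 241 bases inside the gene as GENCODE places it, so most of that window is within the GENCODE gene. Tspan2 had 2 RefSeq windows, and the one not shown held a SOX match. RefSeq windows were matched for 23 of the 32 genes (31 windows). The SOX motif was in 25.8% of these windows and in 16.5% of all 32851 windows of the same length. The shares were 25.8% and 14.4% for the E-box and 29.0% and 16.1% for the MYRF motif. A match describes the letters of the window and is not a measured binding site.

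Per kilobase of exon, Mbp was the most abundant of the 32 genes in each tissue. Mbp, the major basic protein of compact myelin, averaged 14230 normalized counts per kilobase in PFC, 14690 in MDTH and 4898 in HPF. Next in MDTH came Car2 at 5446, Mobp at 4799, Plekhb1 at 4492, Mal at 4089 and Cnp at 3908 normalized counts per kilobase. Car2 encodes a carbonic anhydrase, and Mobp and Mal encode proteins of the myelin sheath. At the other end, the proteoglycan gene Cspg4 averaged 67.9, Enpp6, a choline-specific phosphodiesterase gene of newly formed cells, 70.8, and Galc 76.3 normalized counts per kilobase in MDTH. The order of the genes was much the same in the 3 tissues: across the 32 genes, which share their exon lengths, Spearman's rho of the level per kilobase was 0.966 between MDTH and HPF and 0.964 between PFC and HPF. The lines below give normalized counts that are not divided by length.

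The summed level of the 32 genes separated HPF from both other tissues. It was 86113 to 131029 normalized counts in the 6 HPF libraries (median 115405), 153694 to 549769 in PFC (median 229487) and 267254 to 351291 in MDTH (median 303963). The lowest library of PFC and the lowest of MDTH both lay above the highest of HPF. As a share of all normalized counts, the genes took 0.166% to 0.244% in HPF, 0.279% to 0.98% in PFC and 0.479% to 0.659% in MDTH. In bulk tissue fewer oligodendrocytes and less RNA per oligodendrocyte cannot be told apart.

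**Figure D1:**
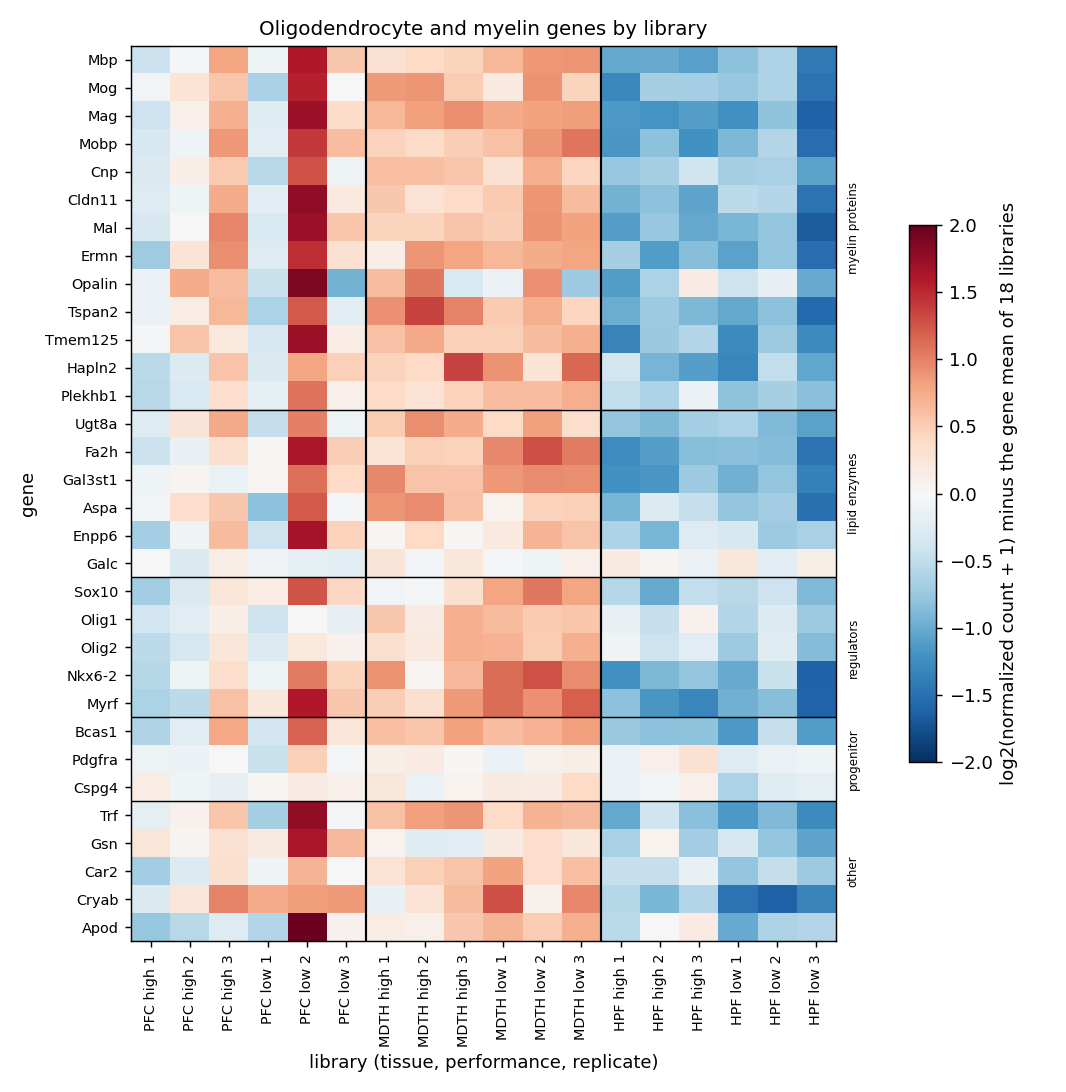
Log2(normalized count + 1) of each of the 32 genes (vertical axis, grouped by role) in each of the 18 libraries (horizontal axis), minus that gene's mean over the libraries; red is above and blue below the mean, and colours saturate at 2. The 6 HPF libraries are blue for most genes, PFC low 2 is the darkest red column, and Galc, Pdgfra and Cspg4 stay pale.

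**Figure D2:**
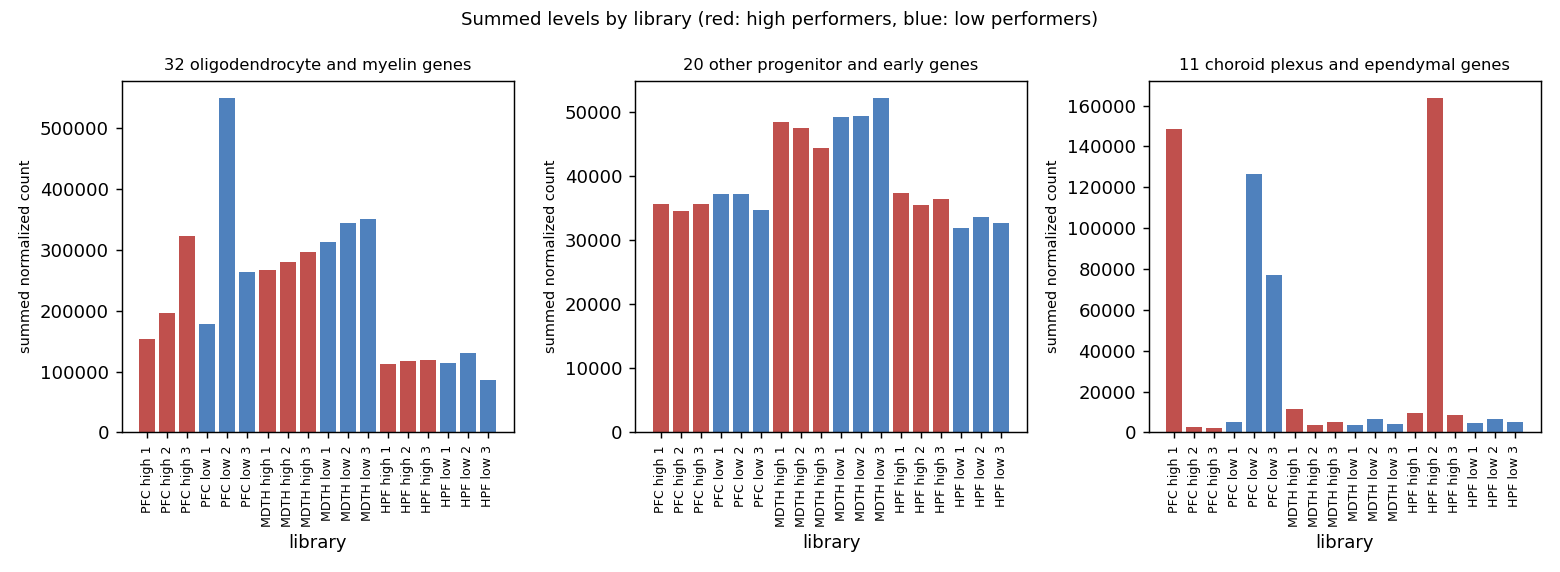
Summed normalized counts of the 32 genes, of 20 other progenitor and early oligodendrocyte genes and of 11 choroid plexus and ependymal genes in each library, as bars from 0 (red for high and blue for low performers). PFC low 2 has the highest bar for the 32 genes, and 4 libraries stand far above the others for choroid plexus genes.

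Against HPF, MDTH was higher for 29 of the 32 genes and lower for 0, where a gene passed at an adjusted p below 0.05 in limma. Of all genes tested, 58.1% were called in this comparison and 29.1% were called higher in MDTH. The median log2 difference over the 32 genes was 1.49, against -0.02 over all genes tested. The 6 libraries of MDTH did not overlap the 6 of HPF for 26 of the 32 genes, as for 31.0% of all genes tested.

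Among the genes of myelin and mature cell proteins, 12 of 13 passed as higher in MDTH than in HPF. All 13 had a positive log2 difference. Mag ran from 8836 to 10670 normalized counts in MDTH (median 9826) and from 1818 to 3208 in HPF (median 2483). The tissues lay far apart for Mag, with a log2 difference of 1.98 ± 0.26 (SE, adjusted p = 7.8e-06 in limma), the widest of the 32. Tspan2 ran from 6910 to 13100 in MDTH (median 9079) and from 1755 to 3110 in HPF (median 2669), 1.82 ± 0.24 apart on the log2 scale (adjusted p = 1.0e-05). Mbp itself ran from 101000 to 149400 in MDTH and from 30620 to 53280 in HPF, with a log2 difference of 1.59 ± 0.24. Opalin, a transmembrane protein gene of the mature cell, did not pass: its libraries overlapped, and the log2 difference of 0.77 had a 95% interval of -0.16 to 1.69.

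Of the 6 enzyme genes, 5 passed. Gal3st1, whose product adds sulfate to galactosylceramide to make sulfatide, ran from 582.2 to 761.8 normalized counts in MDTH and from 153.1 to 237.5 in HPF, a log2 difference of 1.84 ± 0.16 (SE, adjusted p = 9.7e-08 in limma). Fa2h, which hydroxylates the fatty acids of myelin galactolipids, ran from 1572 to 3183 in MDTH and from 468.7 to 731.5 in HPF, a log2 difference of 1.81 ± 0.22. Ugt8a, the enzyme that makes galactosylceramide, differed by 1.45 ± 0.21, and Aspa, which releases acetate from N-acetylaspartate, by 1.34 ± 0.27. Galc, on the breakdown side of the same lipid, ran from 1007 to 1289 in MDTH and from 919.9 to 1258 in HPF. Its log2 difference was 0.03, with a 95% interval of -0.18 to 0.24 and overlapping tissues.

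All 5 transcription factor genes passed, by unequal amounts. Myrf ran from 3494 to 6404 normalized counts in MDTH (median 5137) and from 915.5 to 1572 in HPF (median 1340), a log2 difference of 1.93 ± 0.24 (SE, adjusted p = 4.6e-06 in limma). Nkx6-2, a homeodomain gene of maturing cells, differed by 1.81 ± 0.23. Sox10 differed by 1.14 ± 0.19, Olig2 by 0.95 ± 0.15 and Olig1 by 0.87 ± 0.12. The 95% intervals of Olig1 (0.61 to 1.14) and of Myrf did not meet, although the difference between the genes was not itself tested.

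Of the 3 progenitor or early genes, 2 passed. Pdgfra ran from 2632 to 3211 normalized counts in MDTH and from 2407 to 3560 in HPF, so that the tissues overlapped, and its log2 difference was 0.10 with a 95% interval of -0.16 to 0.35. Cspg4 ran from 661.4 to 951.4 in MDTH and from 464.6 to 775.8 in HPF, and passed at a log2 difference of 0.34 ± 0.10 (SE, adjusted p = 0.0068 in limma). Bcas1, a gene of early and premyelinating cells, differed by 1.52 ± 0.24. The 5 remaining genes all passed, from Gsn, an actin-severing protein gene, at 0.63 to Trf, the iron carrier transferrin, at 1.60.

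Library names carry a number that recurs across tissues, and libraries of the same number deviated together (given with the processing). Within each of the 4 numbers measured in both tissues, MDTH was higher than HPF for 32, 29, 32 and 31 of the 32 genes. The summed level was 2.28, 2.34, 2.65 and 3.04 times that of HPF. The last number was of a low performer and the others were of high performers, and the same share over all genes is not given here. Under the alternatives of the processing 28 to 30 of the 32 genes passed. The share of all genes called in each alternative is not given here. Of the 29 genes, 28 passed under all 29 alternatives. The exception was Apod, a lipid-binding apolipoprotein gene, whose adjusted p rose to 0.053 in limma in one of them.

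**Figure D3:**
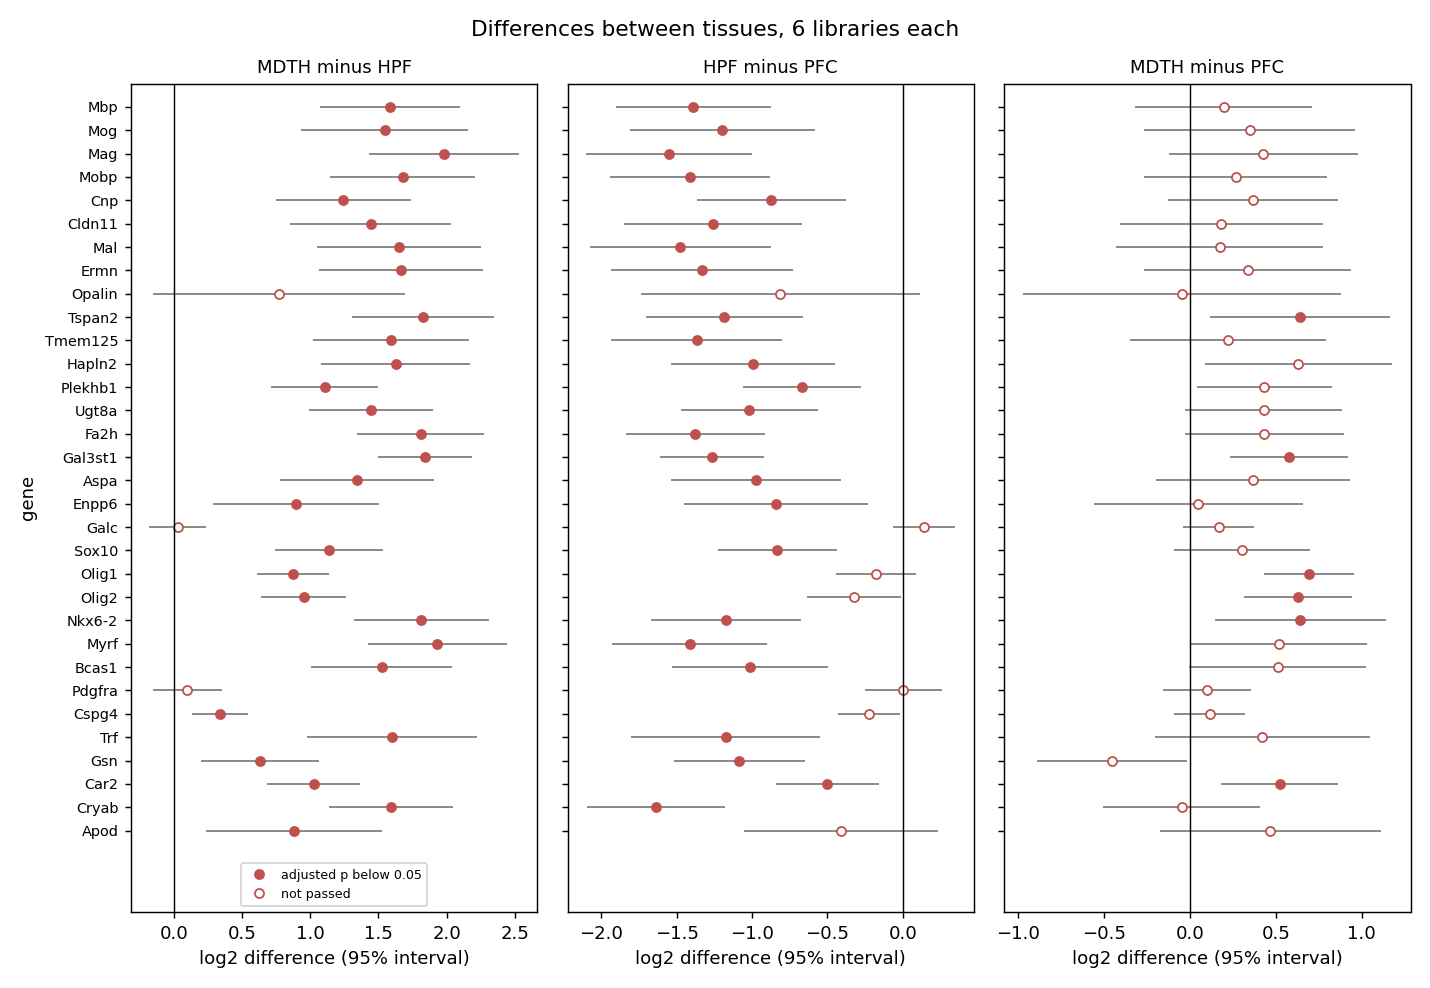
Log2 difference of each gene between tissues (points, with 95% intervals) for MDTH minus HPF, HPF minus PFC and MDTH minus PFC, 6 libraries per tissue; filled points passed at an adjusted p below 0.05. Points lie right of 0 in the MDTH minus HPF panel, up to 1.98 for Mag, and left of 0 in the HPF minus PFC panel except for Galc and Pdgfra near 0.

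Against PFC, HPF was lower for 25 of the 32 genes and higher for 0. Of all genes tested, 45.5% were called and 23.7% were called lower in HPF. The median log2 difference over the 32 genes was -1.05, against 0.01 over all genes tested. Cryab (chr9:50751325-50756636, plus strand, GRCm38), a small heat shock protein gene abundant in oligodendrocytes, was furthest apart: it ran from 1104 to 2274 normalized counts in HPF (median 1579) and from 2750 to 6723 in PFC (median 5838), with no overlap. Its log2 difference was -1.64 ± 0.21 (SE, adjusted p = 1.4e-05 in limma). Mag followed at -1.55, Mal at -1.48, and Mobp and Myrf at -1.41 each. Of these, Mag ran from 4202 to 18330 in PFC, Mal from 5893 to 24320, Mobp from 16620 to 55250 and Myrf from 1794 to 8460. The top of each range was the same library, PFC low 2.

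The 7 genes that did not pass between HPF and PFC were Opalin, Galc, Apod, Olig1, Olig2, Pdgfra and Cspg4. Olig1 ran from 2417 to 4246 in HPF and from 3006 to 4414 in PFC, with a log2 difference of -0.18 and a 95% interval of -0.44 to 0.08. Pdgfra differed by 0.00, with an interval of -0.25 to 0.26. Only 12 of the 32 genes had 6 HPF libraries that did not overlap the 6 of PFC (21.6% of all genes tested). PFC exceeded HPF for 27, 24 and 30 of the 32 genes within the 3 name numbers measured in both, all of high performers. The same share over all genes is not given here. Under all alternatives 22 of the 25 genes passed. The share of all genes called in each alternative is not given here. Leaving out the 4 libraries high in Ttr leaves PFC low 1 as the sole low performer of PFC. The median log2 difference over the 32 genes was then -0.82 between HPF and PFC and 1.49 between MDTH and HPF.

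MDTH and PFC differed for fewer genes. MDTH was higher for 6 of the 32 and lower for 0, at a background of 40.7% called and 20.3% called higher among all genes tested, so fewer of the 32 genes were called than of all genes. The median log2 difference over the set was 0.37, with 29 genes positive, against 0.00 over all genes tested. The 6 were Olig1, Olig2, Nkx6-2, Tspan2, Gal3st1 and Car2, 3 of them transcription factor genes. Olig1 (chr16:91269772-91271933, plus strand, GRCm38), a helix-loop-helix factor gene of the whole lineage, ran from 4528 to 6597 normalized counts in MDTH (median 5874) and from 3006 to 4414 in PFC (median 3539). It was the single gene of the set whose 6 libraries did not overlap (17.3% of all genes tested), with a log2 difference of 0.69 ± 0.12 (SE, adjusted p = 0.00028 in limma). Olig2 ran from 1218 to 1751 in MDTH and from 733.1 to 1256 in PFC, a log2 difference of 0.63 ± 0.15 (adjusted p = 0.0028). Olig1, Olig2, Gal3st1 and Car2 passed under all 29 alternatives.

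The count between MDTH and PFC moved with single PFC libraries. The share of all genes called in each of these settings is not given here, so the counts are not set against a background. With 1 PFC library left out, the median log2 difference over the set ran from 0.18 (without PFC low 1) to 0.64 (without PFC low 2). Without PFC low 2, 20 genes passed, all higher in MDTH, and without PFC high 3 the count was 10. Without the 4 libraries high in Ttr it was 19, and with the name number as a random block 11. Within the name numbers the summed level of MDTH was 1.74, 1.43 and 1.75 times that of PFC for 3 numbers and 0.915 times for the fourth, that of PFC high 3.

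**Figure D4:**
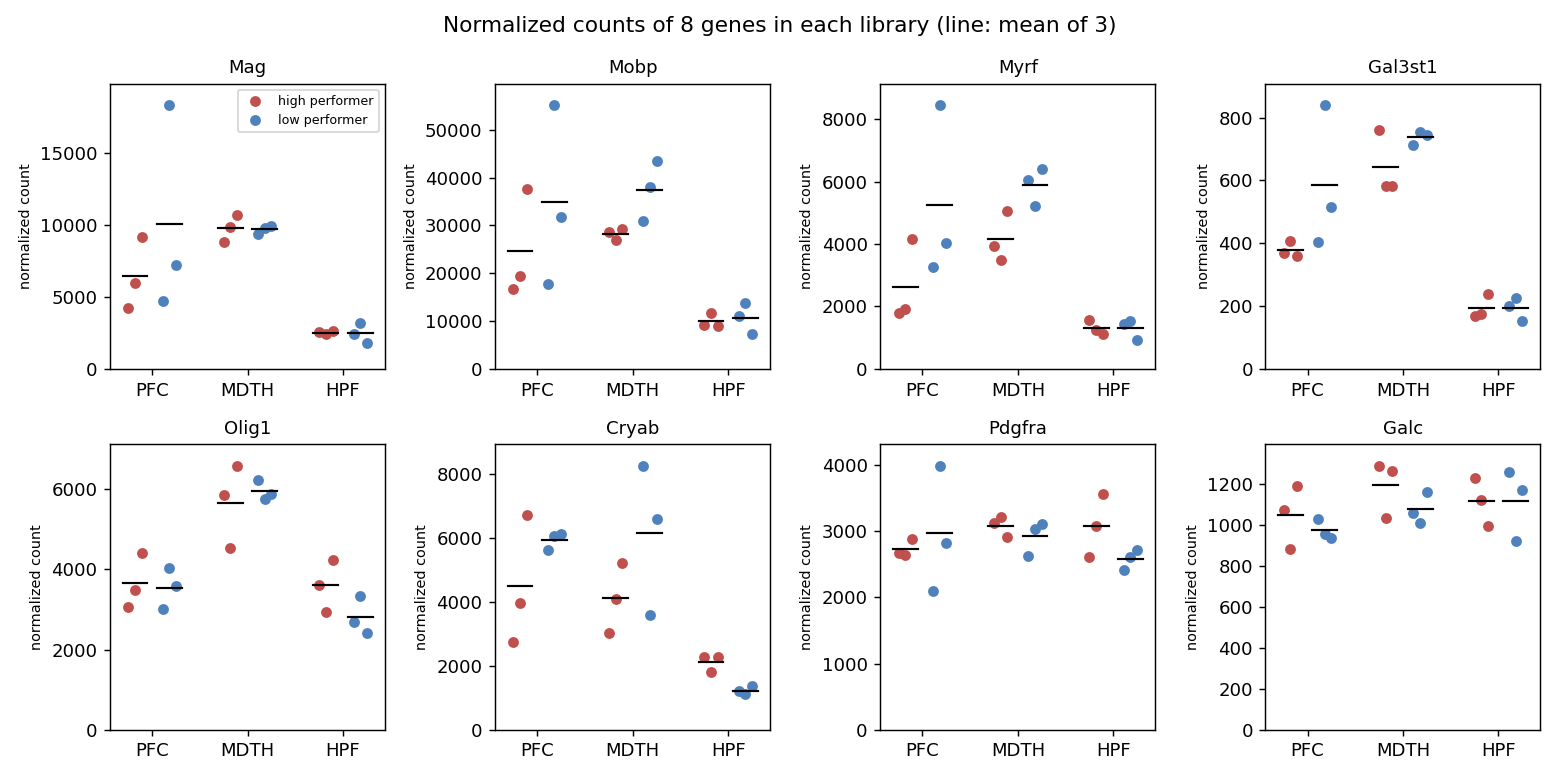
Normalized counts (vertical axes from 0) of 8 genes in each library of PFC, MDTH and HPF, red for high and blue for low performers, with a line at each mean of 3. Mag, Mobp, Myrf and Gal3st1 are lowest in HPF and highest in 1 low performer library of PFC, Cryab separates high from low performers in HPF, and Pdgfra and Galc are level across the tissues.

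PFC libraries varied far more than those of the other tissues. The highest library was 3.59 times the lowest for the median gene of the set in PFC, against 1.49 times in MDTH and 1.75 times in HPF. PFC low 2 was the highest PFC library for 28 of the 32 genes. It held at least 2 times the median of the other 5 libraries for 25 of the 32, as for 9.19% of all genes tested. Apod reached 15140 normalized counts there and 2283 to 4098 in the other 5, and Trf reached 22720 against 4169 to 9747. Exceptions were Galc, at 953.8 in PFC low 2 within a range of 880.1 to 1190, and Olig1, at 4045 within 3006 to 4414. The library was also high in 11 choroid plexus and ependymal genes, at a summed 126553 against 2087 to 148382 in the other 5. The 148382 was that of PFC high 1, the lowest PFC library for 18 of the 32 genes. The summed level of 6 meningeal fibroblast genes was 24277 in PFC low 2 and 1149 to 8808 in the others. Summed endothelial genes were 15443 in it and 8708 to 11084 in the others, and microglial genes 30897 and 19369 to 28132. Summed astrocyte genes, at 284283, lay within the 279271 to 317568 of the others. Summed neuronal genes were 603400 in it and 605367 to 695662 in the others. The levels of some other cells thus moved with this library, and the part of other cells in the level of the 32 genes was not tested. The summed level of 20 other progenitor and early genes was 37291 in it and 34492 to 37147 in the other 5 libraries.

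Between high and low performers in MDTH, 7 of the 32 genes passed, 6 lower and 1 higher in high performers. Of all genes tested 25% were called, 12.5% in each direction, so 7 of 32 is close to the background. The log2 difference was negative for 22 genes, with a median of -0.17 over the set and 0.00 over all genes tested. High and low performers did not overlap for 10 of the 32 genes, as for 44.2% of all genes tested. Regional marker genes moved with the same groups. The summed level of 6 thalamic genes was 153140 to 185530 normalized counts in high and 90431 to 119614 in low performers, with 3 of the 6 genes higher, 1 lower and a median log2 difference of 0.58. That of 6 cortical genes was 7106 to 8704 in high and 11690 to 13530 in low performers, with 1 gene lower and 0 higher. The part of these regional differences in the levels of the 32 genes was not tested.

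Sox10 (chr15:79154908-79165240, minus strand, GRCm38), which drives myelin genes together with Myrf, measured 1562, 1600 and 2039 normalized counts in high performers and 2803, 3391 and 2828 in low performers. All 3 high performers were below all 3 low performers, and the log2 difference was -0.80 ± 0.13 (SE, adjusted p = 0.0084 in limma). Fa2h stood at 1572, 1801 and 1785 in high and at 2534, 3183 and 2671 in low performers. Its groups did not overlap either, at a log2 difference of -0.70 ± 0.11 (adjusted p = 0.0078 in limma).

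Myrf stood at 3926, 3494 and 5051 in high and at 6039, 5223 and 6404 in low performers, a log2 difference of -0.51 ± 0.15 (adjusted p = 0.043 in limma). Mbp stood at 101000, 106900 and 111400 in high and at 129600, 148200 and 149400 in low performers, a log2 difference of -0.42 ± 0.10 (adjusted p = 0.025). Gsn fell by 0.38 (adjusted p = 0.049) and Plekhb1, a membrane-associated pleckstrin homology protein gene, by 0.28 (adjusted p = 0.035) on the log2 scale in limma. The high and low performer libraries did not overlap for any of these 4 genes.

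Tspan2 alone was higher in high performers among those that passed. It stood at 9645, 13100 and 10260 in high and at 7382, 8513 and 6910 in low performers, a log2 difference of 0.53 ± 0.13 (SE, adjusted p = 0.030 in limma). Other myelin genes did not pass: Mag had a log2 difference of 0.01, Cnp, a phosphodiesterase gene of the myelin sheath, 0.10, and Mog, the outer sheath glycoprotein gene, 0.24. Olig1 stood at -0.09 and Olig2 at -0.22, and neither passed.

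In MDTH the difference between high and low performers also ran with the GC content of transcripts. Over all genes tested, split by GC content into 10 bins of equal size, the median log2 difference was 0.17 in the lowest bin. It was -0.24 in the highest bin. In PFC the same medians were 0.12 and -0.17, and in HPF they were 0.05 and -0.04. Sox10 had 61.8% GC, Myrf 57.6%, Gsn 57.1%, Fa2h 55.2%, Mbp 51.0% and Plekhb1 49.1%, and Tspan2 42.2%. With the trend on GC content taken off each library, 4 genes passed, Sox10 (-0.53, adjusted p = 0.026 in limma), Fa2h (-0.61), Mbp (-0.41) and Plekhb1 (-0.31), and Tspan2 had an adjusted p of 0.051. The median over the 32 genes was then -0.04, with 13 positive, against -0.17, with 10 positive, before the correction. The count fell to 2 without low performer 3 or high performer 2, to 3 without low performer 2, to 4 without high performer 3 and to 1, Sox10, when all 18 libraries shared one estimate of spread. Sox10 passed in all 16 alternatives and Fa2h in 15. The share of all genes called in each of these settings is not given here, so the lower counts are not set against a background.

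**Figure D5:**
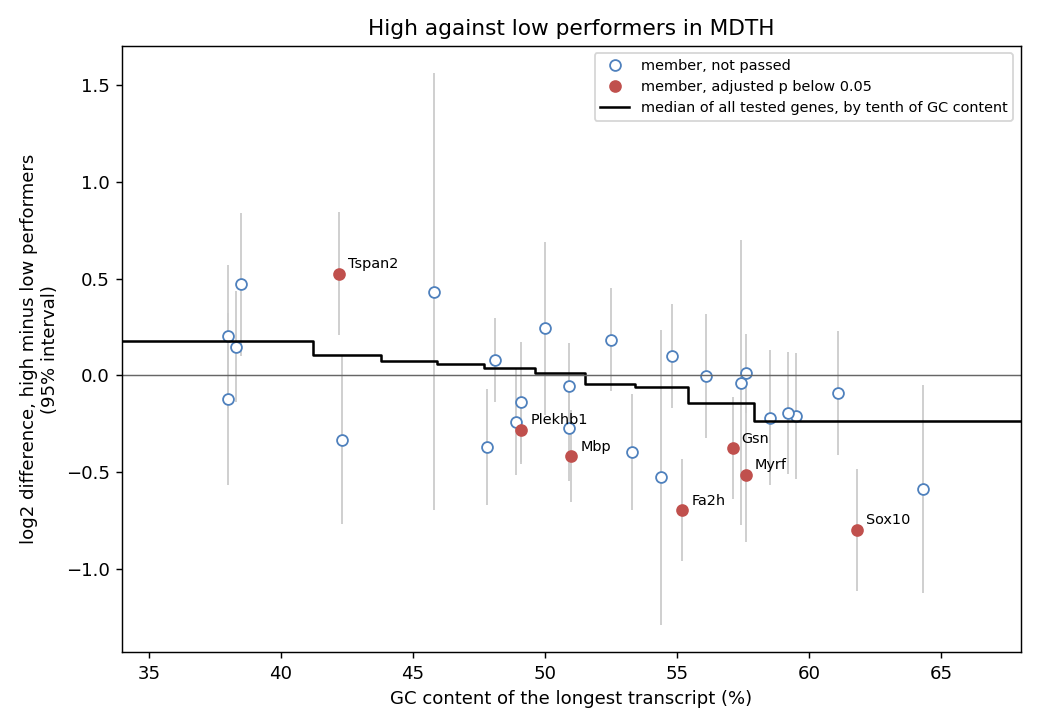
Log2 difference between high and low performers in MDTH (vertical axis, points with 95% intervals, 3 libraries per group) against the GC content of each gene's longest transcript (horizontal axis, percent) for the 32 genes; filled points passed, and the black steps are the median of all tested genes in each of 10 bins of GC content. Sox10 and Fa2h lie furthest below the steps among filled points, and Tspan2 lies above them.

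In PFC 0 of the 32 genes passed between high and low performers in limma, at a background of 5.85% called, and 1 had an unadjusted p below 0.05, against 24.1% of all genes tested. That gene was Sox10, at 1005, 1327 and 1922 normalized counts in high and 1795, 3883 and 2169 in low performers. Its groups overlapped, and the log2 difference was -0.85 ± 0.33 (SE, adjusted p = 0.17 in limma). With all 18 libraries in the fit it was the 1 gene that passed, at an adjusted p of 0.042 in limma. The median log2 difference over the 32 genes was -0.41 with all 6 libraries, with 6 genes positive. Without PFC low 2 it was 0.00, with 16 positive. With the trend on GC content taken off each library it was -0.38, with 3 positive. Leaving out the 3 PFC libraries high in Ttr gave 0.45, with 26 positive, a value that sets 2 high performer libraries against PFC low 1 alone.

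In HPF 0 of the 32 genes passed in limma as well, where 0.0166% of all genes tested were called, and 4 had an unadjusted p below 0.05 (13.3% of all genes tested). The median log2 difference was 0.16, with 26 genes positive. It was 0.13 without HPF high 2, the library high in Ttr, and 0.05, with 18 positive, without HPF low 3. Marker genes of other cells differed between the same groups. Summed neuronal genes were 325529 to 396025 normalized counts in high and 467758 to 545188 in low performers, with a median log2 difference of -0.45 over 11 genes, of which 9 had an unadjusted p below 0.05. The log2 difference was positive for 13 of 13 astrocyte genes (median 0.38), 11 of 11 endothelial genes (0.58) and 13 of 13 microglial genes (0.28). None of these genes passed in limma, while 4 astrocyte, 4 endothelial and 2 microglial genes had an unadjusted p below 0.05. Their part in the levels of the 32 genes was not tested. Cryab stood at 2274, 1799 and 2259 normalized counts in high and at 1206, 1104 and 1358 in low performers. The groups did not overlap, as for 5 of the 32 genes and 20% of all genes tested, and the log2 difference was 0.78 ± 0.13 (SE, adjusted p = 0.13 in limma). The 5 genes with the smallest p-values in HPF were Cryab and, with their log2 differences, Apod (0.61), Plekhb1 (0.35), Cspg4 (0.33) and Car2 (0.30). HPF low 3 was the lowest of the 6 libraries for 20 of the 32 genes. The 1 HPF lane with libraries of both groups held high 3 and low 3, and high 3 was above low 3 for 30 of the 32 genes. That sets 1 library against 1, and the same share over all genes is not given here. HPF high 3 had the highest summed astrocyte (489391), microglial (38353) and endothelial (16274) genes of the 6 HPF libraries. Its summed neuronal genes (325529) were the lowest. The remaining HPF lanes held high 1 with high 2 and low 1 with low 2, so lane and performance could not be separated for those.

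Interaction terms asked whether the performance difference was unequal in a pair of tissues. Between MDTH and HPF, Cryab alone passed (19% of all genes tested), with high performers below low performers in MDTH (3038, 4097 and 5210 against 8262, 3578 and 6575) and above them in HPF. The MDTH groups overlapped. The interaction was -1.31 ± 0.43 (SE, adjusted p = 0.043 in limma) and passed in 14 of 29 alternatives. Between HPF and PFC 0 genes of the 32 passed in limma (9.14% of all genes tested), and between MDTH and PFC also 0 (3.41%). At an unadjusted p below 0.05 the counts were 6 (24% of all genes tested) and 0 (15.7%).

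Genes around the set were counted from lists of other oligodendrocyte genes, of myelin lipid pathways and of other cells. Between MDTH and HPF 58.1% of all genes tested were called, and 29.1% were called higher in MDTH. The counts of the lists are read against these shares. Of 35 tested genes among 36 other mature oligodendrocyte genes, 31 were higher in MDTH than in HPF and 2 were lower, with a median log2 difference of 1.13. The lowest p-values were those of Tubb4a, a tubulin gene, at 1.46 and Sept4, a septin gene, at 1.74. Cholesterol synthesis, which supplies much of the mass of myelin, had 17 of 19 genes higher and 0 lower, with Cyp51 at 0.96 and Pmvk at 1.10. Of 20 other progenitor and early genes, 10 were higher and 3 lower. The share called in either direction was near the background, and the share called higher was above it. Of 12 further genes of sphingolipid synthesis and breakdown 9 were higher and 0 lower, led by Arsa, the lysosomal sulfatase that removes sulfate from sulfatide, at 1.41.

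Lists of other cells and structures were counted in the same way, beside the same background of 58.1% called and 29.1% called higher. Of 13 microglial genes 0 were higher and 11 were lower in MDTH than in HPF, with P2ry12, a purine receptor gene, at -0.86 and Cx3cr1, a chemokine receptor gene, at -0.80. Of 13 astrocyte genes 6 were higher and 3 lower, with a share in either direction near the background and a share called higher above it. Of 11 neuronal genes 7 were higher and 2 lower. Of 11 endothelial genes 4 were higher and 0 lower, a called share below the background, with a median log2 difference of 0.24. Of 11 genes of the node of Ranvier and its flanks, where bare axon meets myelin, 7 were higher and 4 lower, with Nfasc, an adhesion molecule gene, at 1.03 and Cntn2, a contactin gene, at 1.82. Of 8 genes of peripheral myelin, 6 were tested, and 2 were higher and 3 lower.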

How the data were processed

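The 18 RNA-seq libraries were read from 1 table of normalized signal that the authors deposited and named as normalized counts. The tools STAR, Salmon and DESeq2 are named per the submitters' processing notes. Their versions and roles, the build, the gene models and whether counting used strand are not given in the sources used here. All 18 columns matched a library name and 0 were left over.

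Values were taken as log2(normalized count + 1), which understates the change of low genes. Genes with a mean of at least 10 were tested with limma 3.58.1 (R 4.3.3), two-sided with a mean-variance trend and Benjamini-Hochberg adjustment, after the script was tested on simulated data. High and low performers were compared within each tissue, and tissues and interactions in 1 fit of 6 group means. The commonest low value of a library was taken as the worth of 1 read to estimate depth. Identifiers were matched to GENCODE M21 on GRCm38 (99.2%), which gave coordinates, exon lengths and GC content. Python 3.11.15, pandas 2.3.3, numpy 2.4.6 and matplotlib 3.10.9 prepared tables and figures.

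Libraries of different tissues that share a number in their names correlated in their deviations from the group means at 0.35 to 0.61 (11 pairs). For 43 other pairs of the same performance it was -0.37 to 0.31. The deviations of a group sum to 0, so a positive pair lowers the other pairs of its groups, and these ranges are not independent. Genes were named by a rule: the 5 widest differences among those that passed, the 5 smallest p-values where fewer passed, 1 or 2 genes per role, and the 2 smallest p-values of each other list. The gene set, the 15 other lists and the tests were chosen with earlier results of these data known. Alternatives changed the pseudocount (0.5, 5), the filter (none, a mean of 50), the scaling, the trend, the block, the libraries in the fit and the GC correction, or left out libraries.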

Additional observations from a re-analysis of the deposited data

Results flagged for a closer look

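The difference between high and low performers in Cryab differed between MDTH and HPF by a log2 value of -1.31 (3 libraries per group, adjusted p = 0.043 in limma), by a test of the difference itself. In HPF all 3 high performers were above all 3 low performers, and in MDTH 2 of the 3 low performer libraries, at 8262 and 6575 normalized counts, lay above every high performer. The remaining MDTH low performer library lay within the range of the high performers. Of all genes tested, 19% passed in this interaction, and Cryab passed in 14 of 29 alternatives. Leaving out 1 library at a time gave -1.66 to -1.06, with adjusted p-values of 0.011 to 0.099 in limma.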

How the results depend on the processing

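Each count of genes that passed was recomputed in limma under the alternatives. Correction for GC content and leaving out the 4 libraries high in Ttr were chosen after seeing the data. With 3 libraries per group, small differences are hard to detect, and deposited values limit the choice of scaling. The share of all genes called under each alternative is not given here, so a changed count is not set against a background. The cause of each change was not tested.

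Between MDTH and PFC, where 6 genes passed, the count was 11 with the name number as a random block, 19 without the libraries high in Ttr and 4 to 20 when 1 library was left out. Between high and low performers in MDTH, where 7 passed, it was 4 without a filter, 3 without the trend, 4 with the replicate block, 1 with all 18 libraries in the fit, 4 with GC correction and 2 to 5 when 1 library was left out. None of the libraries high in Ttr is from MDTH, so no such value exists there. In PFC 1 gene passed with all 18 libraries in the fit. The interaction of MDTH with HPF, where 1 passed, gave 0 without a filter, without the trend and with GC correction, 2 with the name number as a random block, 4 without the libraries high in Ttr and 0 to 2 when 1 library was left out. That of HPF with PFC gave 0 to 2 when 1 library was left out. High and low libraries of the same replicate number correlated at -0.13 to 0.09, so they share only a number; apart from MDTH, the replicate block changed no count by over 1.5 times, and leaving HPF high 2 out of HPF alone is the same as leaving out its library high in Ttr.

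Leaving out the libraries high in Ttr leaves PFC low 1 as the sole low performer of PFC, so the spread there comes from the other libraries. In that setting some differences that had not passed turned direction: in PFC, Gsn to 0.0026 and Fa2h to 0.069, and in the interaction of MDTH with PFC, Apod to -0.55, Car2 to -0.22, Myrf to -0.31, Mag to -0.64 and Gal3st1 to -0.13. With 1 library left out, Apod ran from -0.10 to 1.18 and Mag from -0.059 to 0.92 in that interaction, with the lowest values without PFC low 2. Between MDTH and HPF, the count stayed at 28 to 30, and between HPF and PFC it stayed at 23 to 27.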

Other observations

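Between high and low performers of MDTH, 25% of all genes tested were called, and the lists near the set are read against that share. Of 20 other progenitor and early oligodendrocyte genes, 7 were lower and 2 higher in high performers, with a median log2 difference of -0.27. C1ql1, a complement-related synaptic protein gene, stood at -1.02 (adjusted p = 0.0070 in limma) and Pcdh15, a protocadherin gene, at -0.83 (adjusted p = 0.0072). The 3 lists that follow had shares called in either direction near or below the background. Of 12 genes of sphingolipid synthesis and breakdown, 3 were higher and 0 lower, led by Sptlc1, a subunit of the enzyme that starts sphingolipid synthesis, at 0.56, and Ugcg, the glucosylceramide synthase gene, at 0.36. Of 11 node and paranode genes, 3 were higher and 0 lower, with Kcna2, a potassium channel gene, at 0.58 and Scn8a, a sodium channel gene of the node, at 0.48. Of 19 cholesterol synthesis genes, 3 were lower and 0 higher, with Sc5d at -0.45 and Msmo1 at -0.42.

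In PFC, 4 of 13 microglial genes were lower and 0 higher in high performers, at a background of 5.85% called. Itgam, an integrin gene, had an adjusted p of 0.019 in limma, and P2ry12 a log2 difference of -0.61. Summed microglial genes were 19369 to 23810 normalized counts in high and 24332 to 30897 in low performers of PFC, with no overlap. The highest sums were those of PFC low 2 and low 3 and the lowest that of PFC high 1, all high in Ttr, and without them 21855 and 23810 in high performers stand beside 24332 in PFC low 1 alone.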
